A study of Mus musculus with 9 samples.

Results

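The genes described here are 10 transcriptional regulators of cardiac energy metabolism: the fatty acid receptors Ppara and Ppard, the estrogen-related receptors Esrra, Esrrb and Esrrg, the retinoid X receptors Rxra and Rxrg, the coactivators Ppargc1a and Ppargc1b, and the corepressor Nrip1. They were chosen by name, and all 10 were found among the 13539 genes of the deposited expression table. Bulk RNA from heart tissue of 12-week-old male mice on the C57BL/6JOlaHsd background was sequenced as 9 libraries in 3 groups of 3. The first group (WT-ISO) was wild type and received isoproterenol, a β-adrenergic agonist, at 10 mg/kg per day from implanted minipumps for 7 days. The second group (KO-ISO) was knocked out for OMA1, a protease that cuts inner-membrane proteins when mitochondria are under stress, and received the same treatment. The third group (KO-NT) was also knocked out for OMA1 and had no treatment. Wild-type hearts without treatment were not analysed here, so the response to the drug cannot be compared between genotypes. In both comparisons with the KO-NT group, the drug and the pump cannot be told apart, and in WT-ISO against KO-NT hearts genotype and treatment also differ together. WT-ISO and KO-ISO are called the treated groups, and KO-ISO and KO-NT the knockout groups. The 3 comparisons share groups of libraries, so they are not independent of each other.

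PPARs are ligand-activated nuclear receptors that bind DNA as partners of an RXR and turn on genes of fatty acid uptake and oxidation. ERRs are orphan nuclear receptors that bind a single extended half-site and drive genes of the citric acid cycle and the respiratory chain. Neither family is a strong activator alone: the PGC-1 coactivators dock onto both and link them to energy demand, while RIP140, the product of Nrip1, docks onto the same receptors and represses. The adult heart, which burns mostly fatty acids, is rich in PPARα, ERRα, ERRγ and PGC-1α, and this network is known for falling in hypertrophy and heart failure.

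The regulators are spread over the genome. In GENCODE M21 on GRCm38, Ppara (ENSMUSG00000022383) spans chr15:85734983-85802819, Ppard (ENSMUSG00000002250) chr17:28232700-28301474 and Nrip1 (ENSMUSG00000048490) chr16:76287400-76373827. Esrra (ENSMUSG00000024955) spans chr19:6910977-6921813, Esrrb (ENSMUSG00000021255) chr12:86361117-86521628 and Esrrg (ENSMUSG00000026610) chr1:187608791-188214885. Rxra (ENSMUSG00000015846) spans chr2:27676440-27762957, Rxrg (ENSMUSG00000015843) chr1:167598384-167639623 and Ppargc1a (ENSMUSG00000029167) chr5:51454250-51567726. The identifier of Ppargc1b is ENSMUSG00000033871. The exons of Esrra overlap those of Trmt112, on the other strand, by up to 73 bases, and the microRNA gene Mir6990, on the same strand, by 91 bases. Whether reads were counted by strand is not stated in the labels.

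To show where receptors of this network could read their own genes, promoters from RefSeq (GRCm38.p6) were searched on both strands. The windows covered the 250 bases before each start, 16 windows for 9 of the 10 regulators. The extended half-site AAGGTCA, the core that ERRs read, was found in 2 of these windows, 1 of Rxrg and 1 of Rxra, and in 4.08% of all 32851 promoter windows. The full ERR response element TCAAGGTCA, which contains AAGGTCA, is in 0.387% of all windows and in none of the 16. The direct repeat read by PPAR-RXR pairs, AGGTCA and again AGGTCA with 1 base between them, is in 0.0335% of all windows and in none of the 16. The cyclic AMP response element TGACGTCA, a search added after the data had been seen, is in 1.55% of all windows and in none of the 16. The 2 windows with a match lie before start sites inside their genes, overlap no annotated exon, and are printed here for the last 100 bases before the start with the half-site in capitals. The match begins 89 bases before the start in Rxrg, at chr1:167618165-167618264 on the + strand, and 49 bases before it in Rxra, at chr2:27709192-27709291 on the + strand.
Rxrg: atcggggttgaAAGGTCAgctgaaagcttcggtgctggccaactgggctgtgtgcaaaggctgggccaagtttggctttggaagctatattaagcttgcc
Rxra: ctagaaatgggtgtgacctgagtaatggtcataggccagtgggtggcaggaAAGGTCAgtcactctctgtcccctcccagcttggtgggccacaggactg
The bases just after the start were found in a GENCODE M21 transcript of the gene for the Rxra window and not for the Rxrg window. A match is a description of letters and does not show binding.

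Values are the deposited normalized expected counts, read estimates per gene scaled within each library by a method that is not stated. A library held 6.93e+06 to 1.22e+07 recovered reads, of which each regulator had between 63 and 1137. The targeted gene, Oma1, stood at 22.0, 19.9 and 17.7 in WT-ISO hearts, at 6.52, 9.10 and 6.63 in KO-NT hearts and at 6.74, 5.73 and 6.25 in KO-ISO hearts, so every knockout library lay below every wild-type library. All 12 cardiomyocyte markers were found, with summed levels of 50278 to 64019, and none of the 7 skeletal muscle markers is among the genes listed. Replicate 3 of WT-ISO hearts had the highest fibroblast sum (1934 against 1098 and 1135 in its group) and an atrial sum of 929 against 140 and 158. Nppa made up 842 of that atrial sum. Myl4 and Myl7 reached at most 1.73 and 0.275 in WT-ISO hearts, and Sln and Bmp10 were at 0. Col1a1 and Col1a2 made up 458 and 580 of that fibroblast sum. The share of signal from the mitochondrial genome separated the groups, at 33.9% to 34.6% in KO-NT, 36.7% to 37.3% in WT-ISO and 38.2% to 42.5% in KO-ISO hearts, and its part in any result was not tested. Replicate 2 of KO-ISO hearts had the highest share, and a sum of 5 red blood cell markers of 6284 against 1388 and 1899 in its group. Where leaving out either library changed the call or the sign of a regulator, the value without it is given. Differences are log2 differences of (value + 1) with the standard error of a limma fit over all 8543 genes tested, and a gene is called where its Benjamini-Hochberg adjusted p is under 0.05.

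Seen over the 3 groups, the regulators fell into several patterns. Ppara, Esrrg, Ppargc1a and Ppargc1b had their lowest values in all 3 KO-ISO libraries and were not called between the other groups. Esrra and Rxrg were lower in both treated groups than in KO-NT hearts. Nrip1 and Esrrb were called in all 3 comparisons, with the highest mean in KO-NT hearts, an intermediate mean in WT-ISO hearts and the lowest in KO-ISO hearts. Rxra had the same order of means and was called between the knockout groups only. That order of means also held for Ppargc1a, Ppargc1b, Esrrg and Rxrg. Ppard was called in none of the 3 comparisons.

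**Figure D1:**
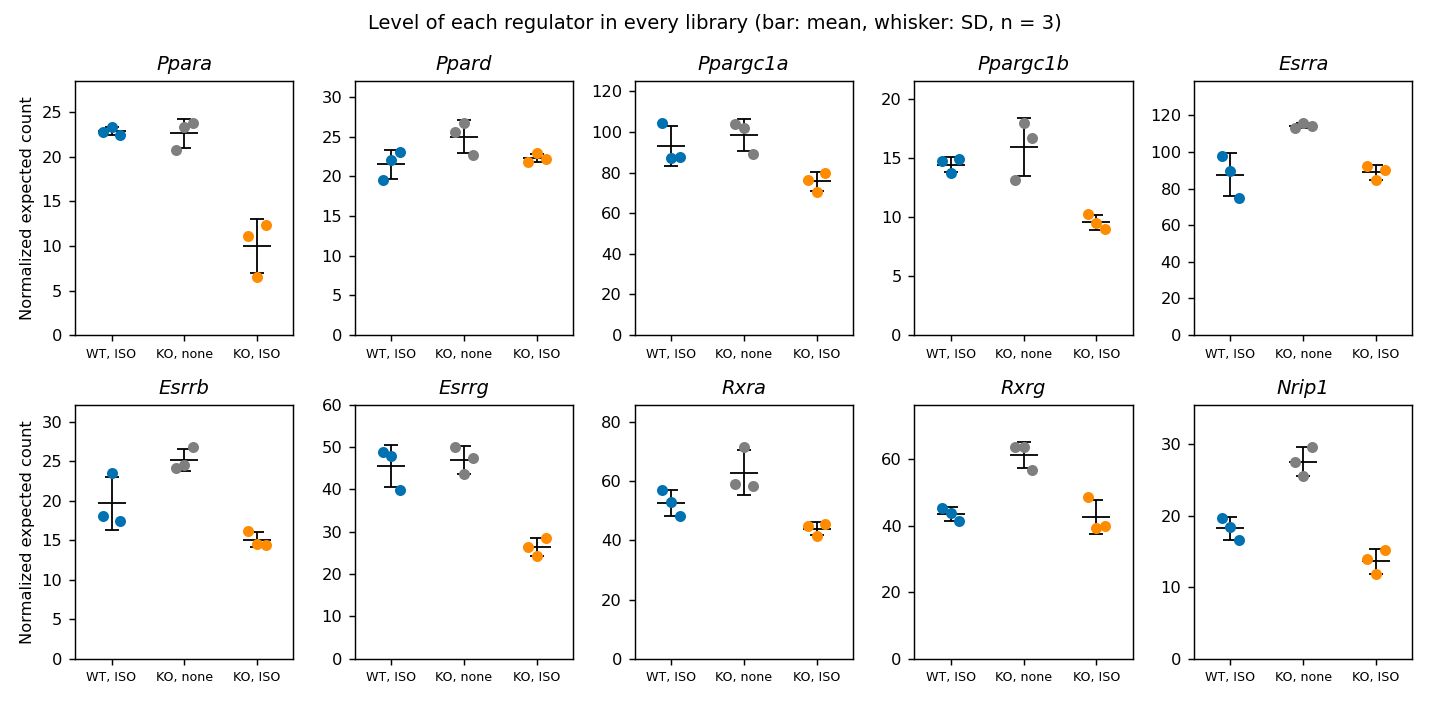
Each panel shows 1 regulator, with its normalized expected count on the y axis, starting at 0, and the 3 groups on the x axis (WT, ISO: WT-ISO; KO, none: KO-NT; KO, ISO: KO-ISO). Points are libraries, bars the mean and whiskers the SD of 3 libraries; the 3 KO-ISO points of Ppara, between 6.57 and 12.3, lie below all 6 others, which lie between 20.8 and 23.8.

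In KO-ISO against WT-ISO hearts, 6 of the 10 regulators were lower in knockout hearts and none was higher. Over all genes tested in that comparison, 27.8% were called, 15.9% lower and 12.0% higher. In 7 of the 10 regulators every KO-ISO library lay below every WT-ISO library, which held for 23.6% of all genes tested, with 20.0% in the opposite direction. Without replicate 2 of KO-ISO hearts 3 of the 10 were called, namely Ppara, Ppargc1b and Esrrg; without replicate 3 of WT-ISO hearts 7 were, and without both libraries 7 were. Between the knockout groups, 9 of the 10 regulators were lower in treated hearts and none was higher, beside 27.4% of all genes called lower and 23.9% called higher. In those 9 the libraries of the groups did not overlap, which held for 33.4% of all genes in the lower and 29.2% in the higher direction. In WT-ISO against KO-NT hearts 4 of the 10 were lower and none was higher, beside 16.9% and 16.4% of all genes, and 5 of the 10 did not overlap, beside 24.1% of all genes in the lower and 23.4% in the higher direction. When libraries were scaled without the mitochondrially encoded genes, the calls over all genes shifted from 1356 lower and 1023 higher to 1065 and 1390 between the treated groups. The same scaling gave 1669 lower and 2834 higher between the knockout groups, against 2345 and 2043, and 1113 and 1806 in the third comparison, against 1440 and 1399. The counts of regulators called remained 6, 9 and 4 under it. In bulk RNA, fewer cells of a type and less RNA per cell cannot be told apart.

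The KO-NT libraries also differed from both treated groups in markers of other cells. The 5 adipocyte markers among the genes listed (of 7) summed to 20.5 to 80.1 in KO-NT hearts, 0.115 to 0.288 in WT-ISO hearts, with Ucp1 and Cidec at 0, and 0 to 0.725 in KO-ISO hearts. The 7 atrial markers summed to 1258 to 2719, 140 to 929 (Sln and Bmp10 at 0) and 142 to 161 (Bmp10 at 0) in the same order. Endothelial sums over 10 markers were 871 to 950 in KO-NT, 1198 to 1288 in WT-ISO and 1434 to 1723 in KO-ISO hearts. Fibroblast sums over 8 markers were 813 to 855, 1098 to 1934 and 1232 to 1313, and sums over 8 markers of dividing cells were 12.1 to 17.0, 105 to 149.7 and 99.6 to 194, in that order. Smooth muscle and pericyte sums over 8 markers were 967 to 978 in KO-NT, 1332 to 1576 in WT-ISO and 1209 to 1460 in KO-ISO hearts, and of the 7 tested 5 were higher and 1 lower between the knockout groups. Cardiomyocyte sums were 59260 to 64019, 50278 to 58284 and 54329 to 57670. From WT-ISO to KO-ISO hearts, 7 of 10 endothelial markers were higher in knockout hearts and 3 of 12 cardiomyocyte markers were lower and 2 higher. The part of these cells in any result below was not tested.

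**Figure D2:**
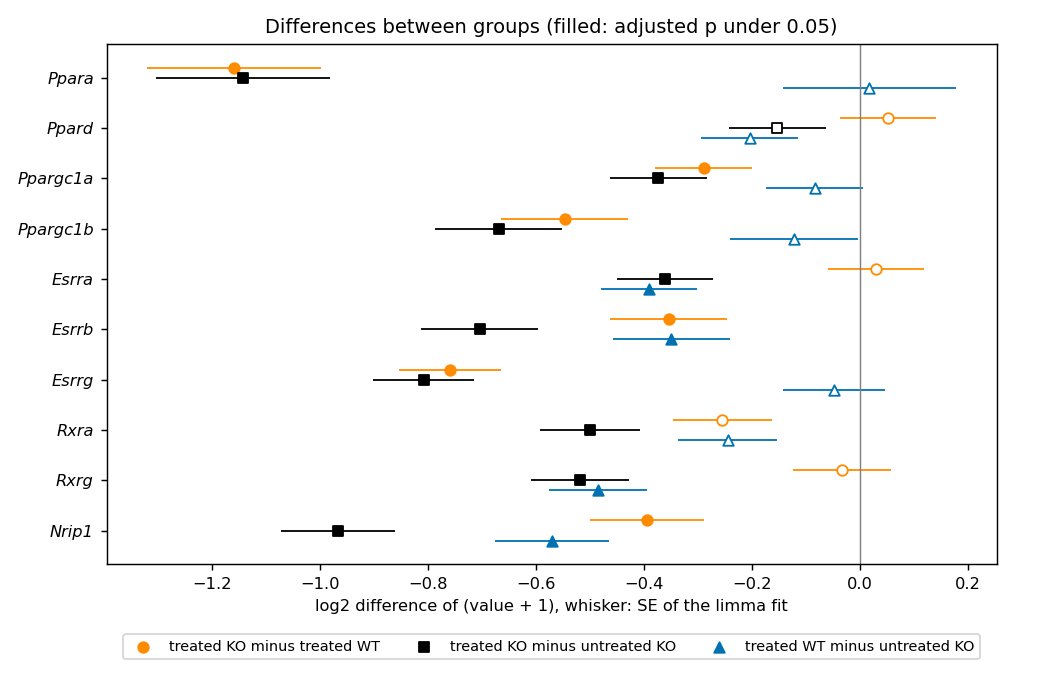
The x axis gives the log2 difference of (value + 1) for each regulator on the y axis, with the standard error of the limma fit as whiskers; circles, squares and triangles are the 3 comparisons and filled symbols have an adjusted p under 0.05. Ppara and Esrrg lie far to the left in both comparisons with KO-ISO hearts and near 0 in the third (0.02 and -0.05).

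Ppara, the receptor that runs fatty acid oxidation genes in the heart, had the largest difference of the 10 regulators in both comparisons with KO-ISO hearts. Its values were 22.7, 23.4 and 22.5 in WT-ISO hearts, 20.8, 23.4 and 23.8 in KO-NT hearts and 11.1, 6.57 and 12.3 in KO-ISO hearts. The first pair of groups overlapped and the KO-ISO libraries lay apart below them. The KO-ISO mean of 9.99 ± 3.03 (SD, n = 3) was 43.7% of the WT-ISO mean of 22.9 ± 0.473. The log2 difference was -1.16 ± 0.16 (adjusted p = 0.0006), the fifteenth lowest of 8543 genes. Against KO-NT hearts it was -1.14 ± 0.16 (adjusted p = 7.4e-05), while WT-ISO and KO-NT hearts differed by 0.02 ± 0.16 (adjusted p = 0.95; 95% interval -0.33 to 0.36). Replicate 2, the lowest, rested on 63 reads, and without it the first difference was -0.91 (adjusted p = 0.00023). With a pseudocount of 10 in place of 1 it was -0.73 (adjusted p = 0.00038).

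Ppard, the receptor that shares many targets with PPARα and is found in most tissues, did not differ detectably between any groups. It stood at 19.5, 22.0 and 23.1 in WT-ISO, 25.6, 26.7 and 22.7 in KO-NT and 21.9, 22.9 and 22.1 in KO-ISO hearts, so that all groups overlapped. From WT-ISO to KO-ISO hearts the difference was 0.05 ± 0.09 (adjusted p = 0.69; 95% interval -0.14 to 0.24). Against KO-NT hearts the KO-ISO value was -0.15 ± 0.09 (adjusted p = 0.17) and the WT-ISO value -0.21 ± 0.09 (adjusted p = 0.094). Pparg, the PPAR of fat cells, lay below the minimum for testing, at 8.34 ± 0.861 in WT-ISO, 7.71 ± 1.49 in KO-NT and 9.29 ± 0.960 in KO-ISO hearts.

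Per kilobase of the longest annotated transcript, Ppara took a smaller share of the PPAR family in each KO-ISO library than in any other, a share for which no test was run. Ppara was 40.9% ± 1.92 (SD, n = 3) of the family's level in WT-ISO hearts, 39.1% ± 2.19 in KO-NT hearts and 21.8% ± 5.46 in KO-ISO hearts. Ppard was 35.2%, 39.6% and 45.3%, and Pparg 23.9%, 21.4% and 32.9%, in the same order. The summed level of the family was 16.4 ± 0.555, 17.0 ± 0.344 and 13.3 ± 1.02 per kilobase.

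Esrra, the ERR that drives respiratory chain genes, was lower in both treated groups. It stood at 98.0, 89.7 and 74.9 in WT-ISO, 113, 116 and 114 in KO-NT and 92.1, 84.4 and 90.0 in KO-ISO hearts. The untreated libraries lay above all 6 treated ones, and the treated groups overlapped. The KO-ISO mean was lower than the untreated one by a log2 difference of -0.36 ± 0.09 (adjusted p = 0.0041) and the WT-ISO mean by -0.39 ± 0.09 (adjusted p = 0.0046). The treated groups differed by 0.03 ± 0.09 (adjusted p = 0.83; 95% interval -0.16 to 0.22), and by -0.08 without replicate 3 of WT-ISO hearts.

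Esrrg, an ERR enriched in tissues of high energy use such as heart and muscle, was low in KO-ISO hearts. Its values were 48.9, 47.8 and 39.9 in WT-ISO, 50.0, 43.5 and 47.5 in KO-NT and 26.3, 24.4 and 28.6 in KO-ISO hearts. No KO-ISO library reached the lowest value of the other groups. The mean of 26.4 ± 2.08 was 58.0% of the WT-ISO mean of 45.5 ± 4.92, a log2 difference of -0.76 ± 0.09 (adjusted p = 0.00029). Against KO-NT hearts (47.0 ± 3.27) the difference was -0.81 ± 0.09 (adjusted p = 1.7e-05). Treated wild-type and KO-NT hearts differed by -0.05 ± 0.09 (adjusted p = 0.72), and by 0.04 without replicate 3 of WT-ISO hearts.

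Esrrb, better known from stem cells and inner ear, was the ERR with the lowest level per kilobase, and its means differed in steps between the groups. It stood at 24.2, 24.6 and 26.8 in KO-NT, 18.1, 23.5 and 17.5 in WT-ISO and 16.2, 14.6 and 14.4 in KO-ISO hearts, with no overlap between groups. Treated knockout hearts were lower than untreated ones by -0.71 ± 0.11 (adjusted p = 0.00015). The step between the treated groups was -0.35 ± 0.11 (adjusted p = 0.027) and that between WT-ISO and KO-NT hearts -0.35 ± 0.11 (adjusted p = 0.024). Both smaller steps were sensitive to single libraries: the first was -0.23 (adjusted p = 0.11) without replicate 2 of WT-ISO hearts, -0.33 (adjusted p = 0.080) without replicate 2 of KO-ISO hearts and -0.33 (adjusted p = 0.073) without replicate 3 of KO-ISO hearts. The second was -0.27 (adjusted p = 0.093) without replicate 3 of WT-ISO hearts, and was also lost without replicate 1 of WT-ISO or replicate 2 or 3 of KO-NT hearts (-0.30, -0.37 and -0.31, adjusted p from 0.056 to 0.086). In values corrected for the GC content and length of transcripts the second step was -0.30 (adjusted p = 0.056). A DESeq2 fit on recovered reads called neither smaller step (adjusted p = 0.059 for the first and 0.0501 for the second).

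Within the ERR family, per kilobase, Esrra made up 72.9% ± 1.69 in WT-ISO, 75.9% ± 1.02 in KO-NT and 80.9% ± 0.228 in KO-ISO hearts. Esrrg made up 17.6% ± 0.301, 14.4% ± 0.983 and 11.1% ± 0.622, and Esrrb 9.54% ± 1.45, 9.67% ± 0.480 and 7.94% ± 0.396. The summed level of the family was highest in KO-NT hearts, at 60.6 ± 0.414 per kilobase, against 48.2 ± 5.87 in WT-ISO and 44.1 ± 2.004 in KO-ISO hearts.

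**Figure D3:**
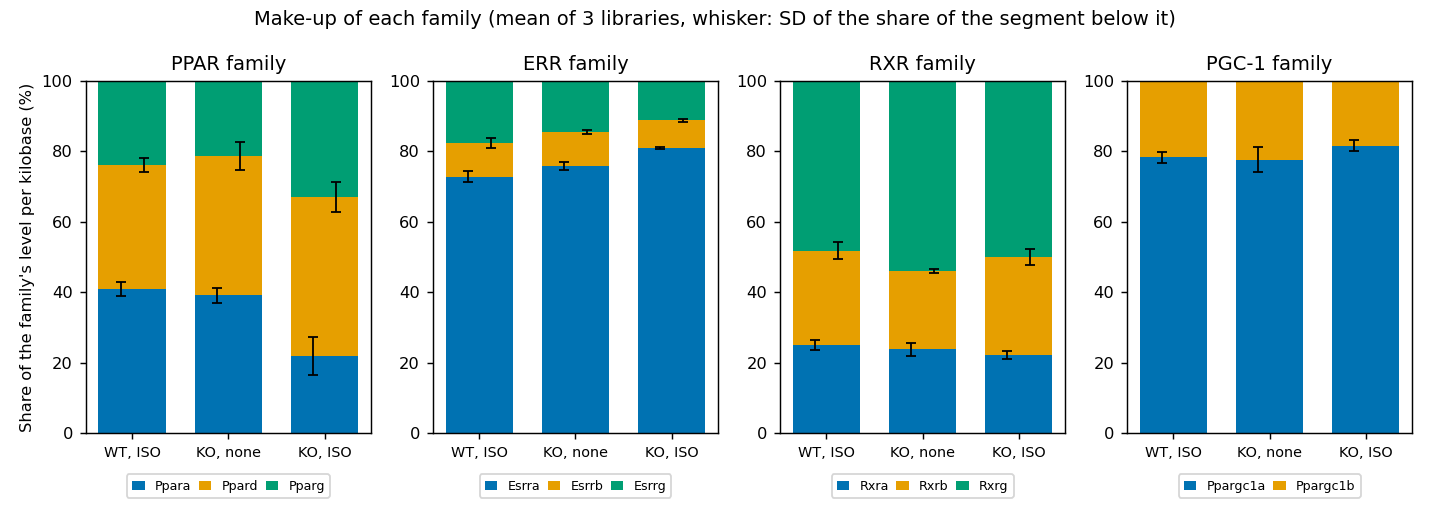
Each stacked bar gives the share of a family's summed level per kilobase taken by each member, in percent (mean of 3 libraries), for the 3 groups on the x axis; whiskers are the SD of the share of the segment below them, and shares of the top segments are in the text. The Ppara segment takes 21.8% in KO-ISO hearts against 40.9% and 39.1% in the other groups.

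Rxra, an obligate partner of the PPARs, was highest in KO-NT hearts. Its values were 58.9, 71.5 and 58.2 in KO-NT, 57.04, 52.9 and 48.2 in WT-ISO and 44.8, 41.6 and 45.5 in KO-ISO hearts. The groups did not overlap. Treated knockout hearts were lower than untreated ones by -0.50 ± 0.09 (adjusted p = 0.00056). The treated groups differed by -0.26 ± 0.09 (adjusted p = 0.053), which was not called, and by -0.32 (adjusted p = 0.025) without replicate 3 of WT-ISO hearts. Treated wild-type against KO-NT hearts gave -0.25 ± 0.09 (adjusted p = 0.055), -0.30 (adjusted p = 0.037) without replicate 1 of WT-ISO hearts and -0.30 (adjusted p = 0.049) without replicate 3 of KO-NT hearts. Leaving out replicate 2 of KO-ISO hearts, which enters that comparison through the shared spread, gave adjusted p = 0.046.

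Rxrg, the RXR enriched in heart and skeletal muscle, was lower in both treated groups. It stood at 63.7, 63.7 and 56.8 in KO-NT, 45.3, 43.9 and 41.3 in WT-ISO and 48.7, 39.4 and 39.9 in KO-ISO hearts. The untreated libraries lay above the others and the treated groups overlapped. The differences from untreated hearts were -0.52 ± 0.09 in KO-ISO (adjusted p = 0.00037) and -0.49 ± 0.09 in WT-ISO hearts (adjusted p = 0.0013). KO-ISO and WT-ISO hearts differed by -0.03 ± 0.09 (adjusted p = 0.81; 95% interval -0.23 to 0.16), and the sign changed in 4 of the alternative analyses, among them that without replicate 2 of KO-ISO hearts (0.02). Rxrb, the RXR present in most cell types, stood at 30.0 ± 2.0 in WT-ISO, 31.6 ± 2.10 in KO-NT and 29.4 ± 0.833 in KO-ISO hearts and was called in no comparison. Per kilobase Rxrg took the largest share of its family, 48.2% ± 0.959, 54.0% ± 1.15 and 50.0% ± 3.19 in the same order.

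Ppargc1a, which encodes PGC-1α, had a higher level per kilobase than Ppargc1b and was modestly lower in KO-ISO hearts. Its values were 104, 87.0 and 87.5 in WT-ISO, 104, 102 and 89.4 in KO-NT and 76.4, 70.6 and 80.1 in KO-ISO hearts. Every KO-ISO library lay below the lowest of the others. The difference was -0.37 ± 0.09 against KO-NT (adjusted p = 0.0035) and -0.29 ± 0.09 against WT-ISO hearts (adjusted p = 0.029). The second call was lost without replicate 1 of WT-ISO hearts, without replicate 1 or replicate 2 of KO-ISO hearts (-0.21, -0.30 and -0.24, adjusted p from 0.058 to 0.12), and in values corrected for the GC content and length of transcripts (-0.13, adjusted p = 0.27). Treated wild-type and KO-NT hearts differed by -0.08 ± 0.09 (adjusted p = 0.50).

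Ppargc1b, which encodes the related coactivator PGC-1β, was lower by a larger ratio. It stood at 14.8, 13.7 and 14.9 in WT-ISO, 13.2, 18.0 and 16.7 in KO-NT and 10.3, 9.48 and 9.004 in KO-ISO hearts. The KO-ISO libraries lay below the others, which overlapped. The mean of 9.58 ± 0.633 was 66.3% of that in WT-ISO hearts (14.5 ± 0.644), a log2 difference of -0.55 ± 0.12 (adjusted p = 0.0056). Against KO-NT hearts (15.9 ± 2.49) it was -0.67 ± 0.12 (adjusted p = 0.00042), and WT-ISO against KO-NT hearts gave -0.12 ± 0.12 (adjusted p = 0.46). With a pseudocount of 10 the first difference was -0.32 (adjusted p = 0.0073). Per kilobase Ppargc1a took 78.3% ± 1.57, 77.7% ± 3.53 and 81.7% ± 1.51 of the pair's level in WT-ISO, KO-NT and KO-ISO hearts.

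Nrip1, which encodes the corepressor RIP140, was lower in KO-ISO hearts than in either other group, as the coactivators were. Unlike them, Nrip1 was also called between WT-ISO and KO-NT hearts. Its values were 27.4, 25.6 and 29.6 in KO-NT, 19.6, 18.4 and 16.5 in WT-ISO and 13.9, 11.8 and 15.3 in KO-ISO hearts, and no groups overlapped. Treated knockout hearts held 49.6% of the untreated mean, a log2 difference of -0.97 ± 0.11 (adjusted p = 1.1e-05). Treated wild-type hearts were lower than KO-NT hearts by -0.57 ± 0.11 (adjusted p = 0.0012). The treated groups differed by -0.40 ± 0.11 (adjusted p = 0.015). That call was lost without replicate 2 of KO-ISO hearts (-0.30, adjusted p = 0.065), without replicate 1 of WT-ISO hearts (-0.34, adjusted p = 0.059) and in values corrected for the GC content and length of transcripts (-0.22, adjusted p = 0.13). With a pseudocount of 10 it was -0.26 (adjusted p = 0.019).

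**Figure D4:**
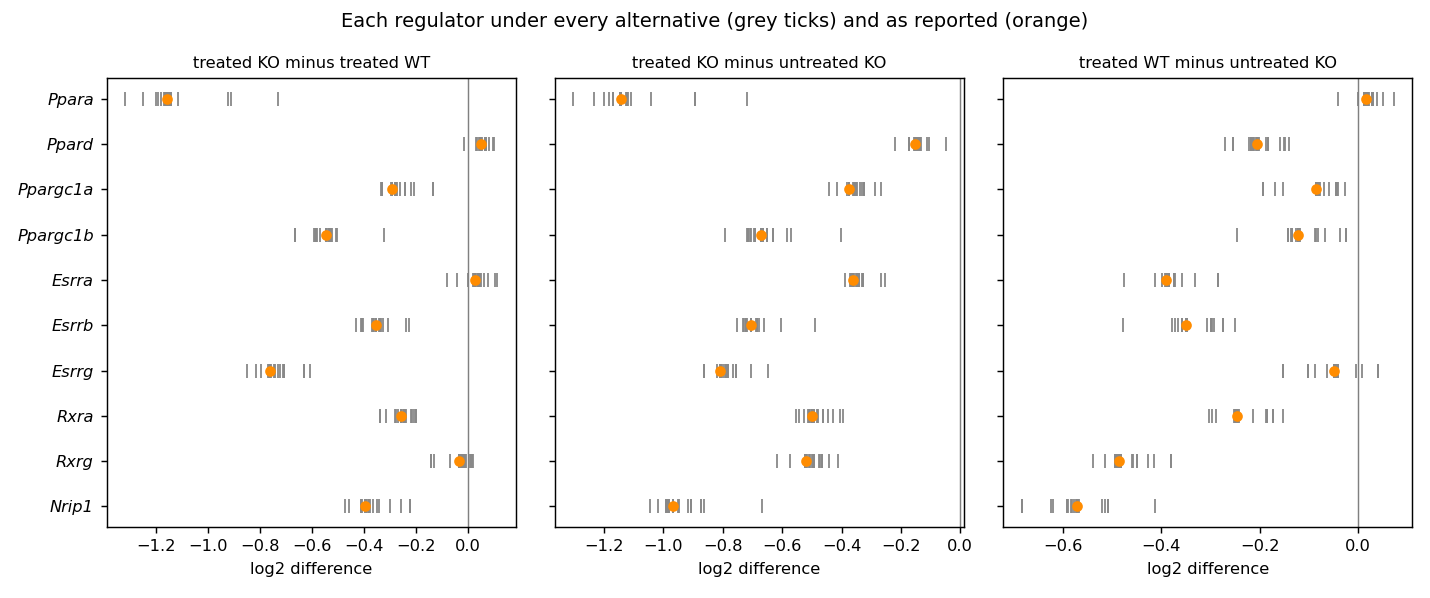
Each panel is 1 comparison, with the log2 difference on the x axis and the regulators on the y axis; grey ticks are the alternative analyses and orange points the reported values. In both comparisons with KO-ISO hearts every tick of Ppara, Ppargc1a, Ppargc1b, Esrrb, Esrrg, Rxra and Nrip1 lies below 0. Between the treated groups the ticks run from -1.32 to -0.73 for Ppara and from -0.85 to -0.61 for Esrrg.

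The target genes of these receptors did not follow the regulators in a single way. Of 32 listed PPAR target genes, 31 were tested. Between the knockout groups 27 of the 31 fell with treatment and none rose, with a median log2 difference of -0.74 against -0.02 over all genes tested. In WT-ISO against KO-NT hearts 26 of the 31 were lower and none higher (median -0.56, all genes 0.01). Between the treated groups, where Ppara differed by -1.16, 3 were lower and 1 was higher (median -0.05, all genes -0.01), which is 9.68% and 3.23% of the 31 beside 15.9% and 12.0% of all genes. Without replicate 3 of WT-ISO hearts 11 were lower and 1 was higher (median -0.17), and without both that library and replicate 2 of KO-ISO hearts 10 were lower and 1 was higher.

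Angptl4, a secreted inhibitor of lipoprotein lipase, stood at 38.3 ± 14.9 in KO-NT, 7.50 ± 1.26 in WT-ISO and 11.2 ± 1.53 in KO-ISO hearts. Angptl4 is also abundant in fat, and the adipocyte sums given above were highest in the same untreated libraries. Ucp3, an inner membrane carrier, stood at 77.9 ± 9.63 in KO-NT, 30.4 ± 8.13 in WT-ISO and 33.2 ± 5.07 in KO-ISO hearts. Pdk4, the kinase that shuts off pyruvate dehydrogenase, stood at 682 ± 142, 367 ± 93.4 and 351 ± 62.5 in the same order. Neither gene was called between the treated groups (0.15 ± 0.17 and -0.05 ± 0.18).

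The enzymes of β-oxidation named here also had lower means in both treated groups than in KO-NT hearts. Cpt1b, the muscle form of the carnitine acyltransferase that commits fatty acids to the mitochondrion, stood at 583 ± 41.6 in KO-NT, 411 ± 47.1 in WT-ISO and 384 ± 19.8 in KO-ISO hearts. Acadm, the medium-chain acyl-CoA dehydrogenase, stood at 992 ± 55.0, 676 ± 78.9 and 585 ± 74.9 in the same order. Neither passed between the treated groups (Cpt1b -0.09 ± 0.09, Acadm -0.21 ± 0.10). Hadhb, a subunit of the trifunctional protein, and Acaa2, a thiolase, were lower than in untreated hearts by -0.93 ± 0.11 and -0.78 ± 0.11 in KO-ISO hearts and by -0.69 ± 0.11 and -0.95 ± 0.11 in WT-ISO hearts.

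The PPAR targets called between the treated groups were not of 1 direction. Acsl1, which activates long-chain fatty acids, was 418 ± 55.0 in KO-ISO against 587 ± 66.9 in WT-ISO hearts (-0.49 ± 0.11, adjusted p = 0.0054). Slc25a20, the carnitine-acylcarnitine carrier, was 85.1 ± 6.66 against 106 ± 15.5 (-0.31 ± 0.10, adjusted p = 0.034). Slc27a1, a fatty acid transport protein, was higher, at 74.8 ± 3.68 against 51.4 ± 8.38 (0.54 ± 0.10, adjusted p = 0.0027). The call of Slc25a20 was lost in at least 1 alternative (highest adjusted p = 0.13).

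**Figure D5:**
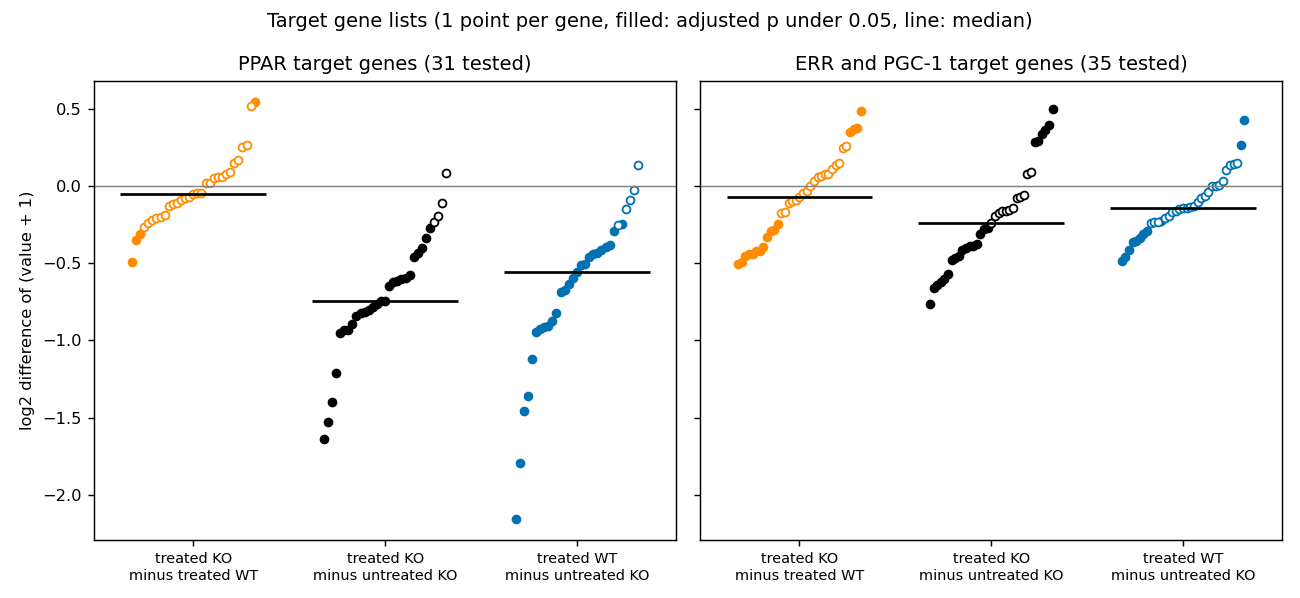
Each point is 1 target gene, with its log2 difference of (value + 1) on the y axis and the 3 comparisons on the x axis, sorted within a comparison; filled points have an adjusted p under 0.05 and lines are medians. PPAR targets (left) have medians of -0.05, -0.74 and -0.56, and ERR and PGC-1 targets (right) of -0.07, -0.24 and -0.14.

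Of 36 listed ERR and PGC-1 target genes, 35 were tested. Between the treated groups 12 were lower and 4 higher in knockout hearts (median -0.07), which is 34.3% and 11.4% of the 35 beside 15.9% and 12.0% of all genes, so the share called higher was near that of all genes. Without replicate 2 of KO-ISO hearts 8 were lower and 2 higher. The direction depended on the scaling: with cyclic loess scaling 11 were lower and 11 higher (median -0.01). Over all genes that scaling gave 1202 lower and 1158 higher, against 1356 and 1023 in the main fit. Between the knockout groups 17 fell with treatment and 6 rose (median -0.24), 48.6% and 17.1% beside 27.4% and 23.9%. In WT-ISO against KO-NT hearts 9 were lower and 2 higher (median -0.14), 25.7% and 5.71% beside 16.9% and 16.4%, and without replicate 3 of WT-ISO hearts 6 were lower and 1 higher.

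Citric acid cycle enzymes were among the targets that were lower in KO-ISO hearts. Cs, citrate synthase, stood at 1282 ± 68.6 in KO-NT, 996 ± 84.2 in WT-ISO and 757 ± 69.5 in KO-ISO hearts, and the treated groups differed by -0.40 ± 0.09 (adjusted p = 0.0063). Ogdh, the E1 subunit of the 2-oxoglutarate dehydrogenase complex, differed between the treated groups by -0.42 ± 0.09 (adjusted p = 0.0057). Mfn2, a fusion protein of the outer membrane, was 511 ± 63.8 in KO-ISO against 690 ± 49.6 in WT-ISO hearts (-0.44 ± 0.09, adjusted p = 0.0048). Ndufs1, the largest subunit of complex I, and Atp1b1, the β1 subunit of the sodium pump, each differed by -0.50 (SE 0.10 and 0.07).

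Other respiratory chain genes took other courses. Cox6c, a small subunit of cytochrome oxidase, was higher in KO-ISO hearts, at 556 ± 9.19 against 399 ± 62.8 in WT-ISO and 395 ± 34.3 in KO-NT hearts (0.49 ± 0.10 in both comparisons). Ndufv1 of complex I and Uqcrc1 of complex III were lower in both treated groups and did not pass between them (0.11 ± 0.09 and 0.07 ± 0.09). Slc25a4, the adenine nucleotide carrier, was lower in WT-ISO than in KO-NT hearts (-0.42 ± 0.10) and not called in KO-ISO hearts (-0.16 ± 0.10).

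Perm1, a muscle gene induced by PGC-1 and ERR, stood at 302 ± 19.5 in KO-NT, 236 ± 27.6 in WT-ISO and 218 ± 8.41 in KO-ISO hearts. It was lower than in untreated hearts by -0.36 ± 0.09 and -0.47 ± 0.09 and differed by -0.11 ± 0.09 between the treated groups. Tfam, which packages and transcribes mitochondrial DNA, was called only between the treated groups in these fits (-0.28 ± 0.10, adjusted p = 0.041), with the differences among comparisons not tested. Nrf1, a transcription factor of nuclear-encoded mitochondrial genes, was higher in both treated groups than in untreated hearts, at 11.5 ± 0.738 and 11.3 ± 1.72 against 8.29 ± 0.839. In at least 1 alternative the call of Tfam (highest adjusted p = 0.16) and both calls of Nrf1 (0.10 and 0.085) were lost.

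Of 28 listed coregulators 27 were tested. In KO-ISO hearts 8 were lower and 4 higher than in WT-ISO hearts (median -0.03; 6 and 1 without replicate 2 of KO-ISO hearts, 5 and 0 without both that library and replicate 3 of WT-ISO hearts). These 8 and 4 are 29.6% and 14.8% of the 27, beside 15.9% and 12.0% of all genes. Between the knockout groups 10 fell and 4 rose, 37.0% and 14.8% beside 27.4% and 23.9%. In WT-ISO against KO-NT hearts 5 were lower and 2 higher, 18.5% and 7.41% beside 16.9% and 16.4%, with 4 called in all without replicate 2 of KO-NT hearts. The share higher between the treated groups and the share lower in the last comparison were thus near those of all genes. Lpin1, which encodes lipin 1, a phosphatidate phosphatase that also coactivates PPARα with PGC-1α, was 120 ± 7.13 in KO-ISO, 182 ± 16.4 in WT-ISO and 187 ± 5.52 in KO-NT hearts. Its differences were -0.59 ± 0.08 (adjusted p = 0.00052) and -0.64 ± 0.08 (adjusted p = 2.8e-05). Prox1, a homeodomain corepressor of ERRα and PGC-1α, was 50.3 ± 8.84, 76.0 ± 7.85 and 92.4 ± 5.43 in the same order (-0.60 ± 0.11 between the treated groups, adjusted p = 0.003). The acetyltransferase gene Kat2b differed by -0.52 ± 0.10 and the p160 coactivator gene Ncoa2 by -0.38 ± 0.08 between the treated groups. Tle3, a Groucho-type corepressor, stood at 10.6 ± 1.78 in KO-NT, 14.2 ± 0.269 in WT-ISO and 19.3 ± 0.594 in KO-ISO hearts, and all 3 differences passed. Cited2, Ctbp1 and Med1 were called between WT-ISO and KO-NT hearts, at -0.42 ± 0.09, -0.30 ± 0.07 and 0.27 ± 0.08, and not between the treated groups. In at least 1 alternative Ncoa2 and Tle3 were not called between the treated groups (highest adjusted p = 0.06 and 0.053), nor Tle3, Ctbp1 and Med1 in WT-ISO against KO-NT hearts (0.067, 0.061 and 0.11).

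Of 27 other listed nuclear receptors, 18 were tested. Between the treated groups 4 were lower and 2 higher (2 and 1 without replicate 2 of KO-ISO hearts, 0 and 2 without both that library and replicate 3 of WT-ISO hearts). These are 22.2% and 11.1% of the 18, beside 15.9% and 12.0% of all genes, so the share higher was near that of all genes. Between the knockout groups 9 fell and 1 rose, 50.0% and 5.56% beside 27.4% and 23.9%, and in WT-ISO against KO-NT hearts 6 were lower and none higher, 33.3% and 0% beside 16.9% and 16.4%. Nr1d1 and Nr1d2, the REV-ERB repressors of the circadian clock, were lower in both treated groups. Nr1d1 stood at 102 ± 6.81 in KO-NT, 46.3 ± 1.62 in WT-ISO and 43.9 ± 9.65 in KO-ISO hearts. The labels do not give the time of day at which hearts were taken. Thra, the main thyroid hormone receptor of the heart, was lower in both treated groups, by -0.44 ± 0.09 in WT-ISO and -0.51 ± 0.09 in KO-ISO hearts. KO-ISO and WT-ISO hearts differed in Nr3c2, the mineralocorticoid receptor, by -0.51 ± 0.13, in Nr2c2 by -0.57 ± 0.14, in Rora by -0.40 ± 0.11 and in Nr1h2, the liver X receptor β, by 0.41 ± 0.08. Each of these 4 calls was lost in at least 1 alternative, with a highest adjusted p of 0.071, 0.065, 0.14 and 0.13. With the correction for length and GC content the difference of Nr1h2 was 0.16.

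Of 34 listed upstream regulators, signalling and transcription factors known to act on PGC-1 or the receptors, 32 were tested. Between the treated groups 9 were lower and 3 higher (5 and 1 without replicate 2 of KO-ISO hearts, and 7 in all without replicate 2 of WT-ISO hearts). These 9 and 3 are 28.1% and 9.38% of the 32, beside 15.9% and 12.0% of all genes. Between the knockout groups 15 fell and 3 rose, 46.9% and 9.38% beside 27.4% and 23.9%. In WT-ISO against KO-NT hearts 8 were lower and 3 higher, 25% and 9.38% beside 16.9% and 16.4%. The share called higher was near that of all genes between the treated groups and below it in the other comparisons. That last total of 11 became 7 without replicate 2 of WT-ISO hearts, and also 7 without either replicate 1 or replicate 2 of KO-NT hearts. Prkaa2, the AMPK catalytic subunit that prevails in muscle, was 93.0 ± 20.4 in KO-ISO against 165 ± 6.29 in WT-ISO and 173 ± 1.41 in KO-NT hearts. Its differences were -0.85 ± 0.12 (adjusted p = 0.0008) and -0.91 ± 0.12 (adjusted p = 5.2e-05). Hif1an, an oxygen-dependent hydroxylase that holds HIF-1α back, differed by -0.68 ± 0.09 and -0.84 ± 0.09, Gsk3b by -0.46 ± 0.08 and -0.42 ± 0.08 and Camk2d by -0.43 ± 0.08 and -0.68 ± 0.08. Klf4, a Krüppel-like factor that can bind ERR and PGC-1 complexes, stood at 18.0 ± 2.86 in KO-NT, 37.2 ± 4.57 in WT-ISO and 49.9 ± 0.384 in KO-ISO hearts. Klf15, which works with PPARα on lipid genes, stood at 35.0 ± 2.30, 20.5 ± 3.29 and 20.3 ± 2.69 in the same order. Gata4, a cardiac transcription factor, stood at 111 ± 5.74, 77.3 ± 0.906 and 62.9 ± 7.61 in that order. Mapk14, the p38α kinase, stood at 76.8 ± 2.89, 52.3 ± 0.242 and 52.8 ± 0.759. Between the treated groups the calls of Klf4 (0.42 ± 0.11) and Gata4 (-0.30 ± 0.09) were each lost in at least 1 alternative (highest adjusted p = 0.058 and 0.071).

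For each regulator called in at least 1 comparison, the tested genes with the most similar course over the 9 libraries were found by the root mean square difference of log2 values centred on each gene's own mean. Libraries of a group share treatment and genotype, and all genes of a library share its depth. Nearest to Ppara were Inpp4b (0.12) and Alg10b (0.13), where Ppara itself varied by 0.58 about its mean. Nearest to Esrrg were the muscle-specific ring finger gene Trim55 (0.09) and the importin gene Ipo7 (0.10), against 0.38 for Esrrg itself. Trim55 stood at 46.0 ± 5.75 in WT-ISO, 47.4 ± 1.74 in KO-NT and 25.8 ± 3.53 in KO-ISO hearts, close to the values of Esrrg on the same scale. Nearest to Ppargc1a were Mat2b (0.03) and the calcineurin subunit gene Ppp3cb (0.04), and to Ppargc1b Heatr5b (0.08) and Atp6v0a2 (0.09). Nearest to Esrra were Fastk (0.04) and Pde4a (0.05), to Esrrb Hspa12a (0.10) and Rtn4ip1 (0.10), and to Rxrg Rnf123 (0.06) and Parp1 (0.07). Nearest to Rxra were Arhgef10l (0.05) and Idh3a (0.06), a subunit of the citric acid cycle isocitrate dehydrogenase, and to Nrip1 Tmx4 (0.07) and Ddo (0.07).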

How the data were processed

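The deposited table holds normalized expected counts, a signal scaled by a method that is not stated in the sources used here. Per the submitters' processing notes, cutadapt, RSEM 1.17 and limma were used with GRCm38; which aligner, settings and strand were used is not given in the sources used here. Dividing each library's deposited values by the worth of 1 read gave whole reads (100% of values within 0.02 reads). All 9 columns were mapped to a sample by their titles.

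Values were taken as log2(value + 1). The 8543 of 13539 genes that reached 10 in 3 or more of the 9 libraries went into limma 3.58.1 (R 4.3.3) with 1 mean per group, a shared spread and a mean-variance trend, two-sided, with Benjamini-Hochberg adjustment over all genes tested in a comparison. The fit was also run on simulated counts with 200 changed genes. That is fewer than were called here in any comparison, so the run cannot show how accurate the calls are in these data. Levels per kilobase used the longest GENCODE M21 transcript. Marker lists, promoters and coordinates are on GRCm38. Of the listed genes, 4 that the table gives under older names were matched by ID (Perm1, Adgre1, Hbb-bs and Hbb-bt).

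The regulators and gene lists were chosen with earlier results of these data known, so list counts are descriptions. Genes named are the 10 regulators; up to 4 genes of each list with the smallest p in a comparison; Cpt1b, Acadm, Pdk4, Ucp3, Angptl4, Perm1, Tfam, Nrf1, Pparg and Rxrb; and the 2 nearest genes of each regulator called. Some genes that this rule names are not reported here. Alternatives covered the pseudocount, filter, scaling, form and tool of the fit (edgeR 4.0.16 and DESeq2 1.42.0 on recovered reads, limma voom), transcript length and GC content, threshold, groups in the fit, a replicate block and each library left out. No pairing by replicate number was used in the main fit. Of 9 same-numbered pairs, 3 had a correlation of residuals over 0.1. These pairs ranged from -0.14 to 0.183, and differently numbered pairs from -0.251 to 0.227. With 3 libraries per group this cannot show whether replicate numbers mark a pairing. The labels give no animal numbers, so p-values reflect only how these samples vary, which may be technical.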

Additional observations from a re-analysis of the deposited data

How the results depend on the processing

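Each result was recomputed under 27 alternatives, 1 of them (replicate 3 of WT-ISO and replicate 2 of KO-ISO hearts left out together) chosen after seeing the data. The counts of regulators called, 6 between the treated groups, 9 between the knockout groups and 4 in WT-ISO against KO-NT hearts, moved by over 1.5 times in the first alone: to 3 without replicate 2 of KO-ISO hearts and to 3 at a threshold of 0.01. With each library left out in turn they ranged from 3 to 7, 9 to 9 and 3 to 5. A fit with the replicate number as a block gave 6, 9 and 4 and changed no call of a regulator. All 11 sign changes were in differences that were not called. Between the treated groups Rxrg became 0.016 with cyclic loess scaling, 0.015 with scaling without mitochondrially encoded genes, and 0.019 and 0.010 without replicates 2 and 3 of KO-ISO hearts; Ppard became -0.014 without replicate 1 of WT-ISO hearts; and Esrra became -0.078 without replicate 3 of WT-ISO hearts and -0.042 with both doubted libraries left out. In WT-ISO against KO-NT hearts Esrrg became 0.0091 with scaling without mitochondrially encoded genes, 0.042 without replicate 3 of WT-ISO hearts and 0.042 with both left out, and Ppara became -0.041 without replicate 1 of KO-NT hearts. With each library left out in turn, the first comparison ranged from -0.13 to 0.019 for Rxrg, -0.014 to 0.10 for Ppard and -0.078 to 0.11 for Esrra, and the last from -0.10 to 0.042 for Esrrg and -0.041 to 0.052 for Ppara. Calls were lost for Ppargc1a in 7, Esrrb in 6 and Nrip1 in 5 alternatives and gained for Rxra in 5 between the treated groups, and lost for Esrrb in 9 and gained for Rxra in 5 in WT-ISO against KO-NT hearts; no call of a regulator changed between the knockout groups. Calls over all genes between the treated groups, 2379, fell to 1539 with the block and the correction for transcript length and GC content, to 1336 without replicate 2 of KO-ISO hearts and to 959 at a threshold of 0.01; in WT-ISO against KO-NT hearts 2839 fell to 1642 at that threshold. Calls among PPAR targets between the treated groups, 4, became 12 without replicate 3 of WT-ISO hearts and 11 with both libraries left out. With the length and GC correction, calls between the treated groups became 6 of 26 coregulators (12 of 27), 3 of 18 other nuclear receptors (6) and 7 of 32 upstream regulators (12). The cause of these changes was not tested. The lowest regulator values rest on few reads (63 for Ppara), which limits their precision.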
